A study of Homo sapiens with 6 samples.

Results

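The KCTD adaptor proteins described here are 10 genes, KCTD3, KCTD5, KCTD9, KCTD10, KCTD12, KCTD14, KCTD16, KCTD18, KCTD20 and KCTD21, out of 27738 genes whose accessions could be matched to a symbol. They were taken by name from the authors' deposited table of 1 comparison, each by its RefSeq transcript accession with the highest base mean, the mean over libraries of reads divided by a library size factor. Of the 10 members, 6 had an adjusted p in that table and 4 did not. The cells were U87, an established human glioblastoma line, in 2 groups of 3 libraries each, labelled EGFR+vIII and EGFR+vIII TLR2 KO. EGFR is the epidermal growth factor receptor and vIII its constitutively active deletion mutant, which both groups carry by their labels, and TLR2 is the innate immune receptor that was knocked out. The labels do not give the driving promoter, the number of knockout clones or whether each library had its own culture. The p-values thus reflect only how these 6 libraries vary, which could be technical variation. The members were chosen by their listing in this table, and the accession of each was selected on its base mean in the same libraries, with this comparison in view, so their own fold changes and adjusted p are given as a description, and nothing is supported with them.

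KCTD proteins share an N-terminal BTB domain, related to the tetramerization domain of voltage-gated potassium channels, through which they form oligomers. Many of them use it to hold the ubiquitin ligase scaffold CUL3 while a variable C-terminal part binds a substrate. Others, KCTD8, KCTD12 and KCTD16, are auxiliary subunits of the GABA-B receptor, a G protein-coupled receptor known for slow inhibition in neurons, where they bind the receptor and G protein beta-gamma dimers and shape the speed of the response.

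Promoter sequences of the members with the clearest differences are shown first, since KCTD16 and KCTD12 were lower and KCTD5 was higher in the knockout. They cover the 250 bases before the RefSeq gene start in GRCh38.p14, 5′ to 3′ on the gene's strand, for KCTD16 at chr5:144170623-144170872 (plus strand), KCTD12 at chr13:76886406-76886655 (minus strand) and KCTD5 at chr16:2682273-2682522 (plus strand). Capitals mark GC boxes, GGGCGG on either strand, the motif that SP1 family factors bind.
KCTD16: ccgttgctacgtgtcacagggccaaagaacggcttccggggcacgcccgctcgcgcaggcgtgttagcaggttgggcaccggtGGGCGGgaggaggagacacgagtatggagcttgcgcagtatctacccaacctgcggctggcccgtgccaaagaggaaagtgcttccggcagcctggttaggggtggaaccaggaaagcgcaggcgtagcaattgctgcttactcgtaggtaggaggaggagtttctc
KCTD12: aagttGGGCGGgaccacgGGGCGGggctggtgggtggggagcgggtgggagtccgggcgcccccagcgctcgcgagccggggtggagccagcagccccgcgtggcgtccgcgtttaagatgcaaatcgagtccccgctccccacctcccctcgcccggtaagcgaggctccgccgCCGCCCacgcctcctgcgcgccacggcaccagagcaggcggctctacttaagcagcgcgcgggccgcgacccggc
KCTD5: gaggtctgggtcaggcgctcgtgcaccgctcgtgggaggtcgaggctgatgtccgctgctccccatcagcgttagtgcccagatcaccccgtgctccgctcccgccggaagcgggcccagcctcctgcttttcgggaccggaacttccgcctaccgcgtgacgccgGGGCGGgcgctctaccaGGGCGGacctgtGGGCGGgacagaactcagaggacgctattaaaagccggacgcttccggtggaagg

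Each of these windows held a GC box: KCTD16 had 1, at 167 bases before the start, KCTD12 had 3 and KCTD5 had 3. A GC box was present in 42.6% of 35116 promoter windows of the same length. The TATA box (TATAAA), the CCAAT box (CCAAT), the E-box (CACGTG), the AP-1 site (TGACTCA), the cyclic AMP response element (TGACGTCA) and the kappa B consensus, searched on both strands, were not found in these windows, and the GC boxes did not overlap each other. Their shares of all windows were 10.7%, 32.0%, 6.34%, 4.20%, 1.65% and 5.21%. KCTD12 had the densest window, with 34 CpG dinucleotides against 19 for KCTD16 and 27 for KCTD5, and a median of 11 over all windows. A match is a description of letters, not a bound site. RefSeq lists another KCTD16 start, and the one shown lies 41 bases from the GENCODE start of the transcript paired with the counted accession. Of the 25 family genes, 20 were matched to a RefSeq promoter, and KCTD14, KCTD15, KCTD18 and KCTD19 had no entry. Family windows on chromosome 8 were left out of the matching, so KCTD9, which lies there, was not looked up.

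The table holds no value per library, so libraries cannot be compared one by one. Its base means sum to 1.12e+07 normalized reads per library, and the size factors recovered from the smallest base means ranged from 0.928 to 1.07. A positive fold change is read as higher in the knockout, because the table names that group first. The knocked-out gene cannot test this reading, since all 8 accessions of TLR2 are listed at 0, and the opposite order would reverse every direction. Levels of each group were implied from the base mean and the fold change, assuming 3 libraries a side, and carry no error of their own. Because the deposited fold changes look shrunken towards 0, the implied levels and the folds may understate the distance between the group means, more so for genes with a large SE such as KCTD16. Of 10 markers of U87 cells 9 were tested, with VIM (base mean 126476) and TNC (90343) the highest and CD44 (26.7), PDGFRA (9.79) and FN1 (4.98) the lowest. Of these 9, 5 were called (55.6%), 3 higher and 2 lower. Over all tested genes 25.1% were called, 12.4% higher and 12.7% lower. CHI3L1 was 8.03-fold and NES 2.01-fold higher in the knockout, while SOX2 was 5.48-fold lower, and the part of these markers' changes in the members' values was not tested. GFAP, the astrocyte filament, is listed at 0 in 4 accessions, and 6 of 7 leucocyte markers are listed at 0, with a summed base mean of 2.47 over the list. Of epithelial, endothelial and neuronal markers, PECAM1 (159) and GAD1 (81.2) had the highest base means and 0 of 4 tested passed the adjusted p.

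Among the members, KCTD16 and KCTD12 were lower in the knockout, KCTD9 was lower by less and KCTD5 was higher. In the authors' deposited table, 4 of the 6 tested members had an adjusted p under 0.05 by DESeq2, 1 higher and 3 lower. Over all 9372 tested genes, 25.1% passed, 12.4% higher and 12.7% lower. The median log2 fold change was -0.36 over the 6 tested members and 0.02 over all tested genes. Since the members were listed from this contrast, nothing is read from these shares. In bulk RNA, fewer cells of a kind and less RNA per cell cannot be told apart.

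**Figure D1:**
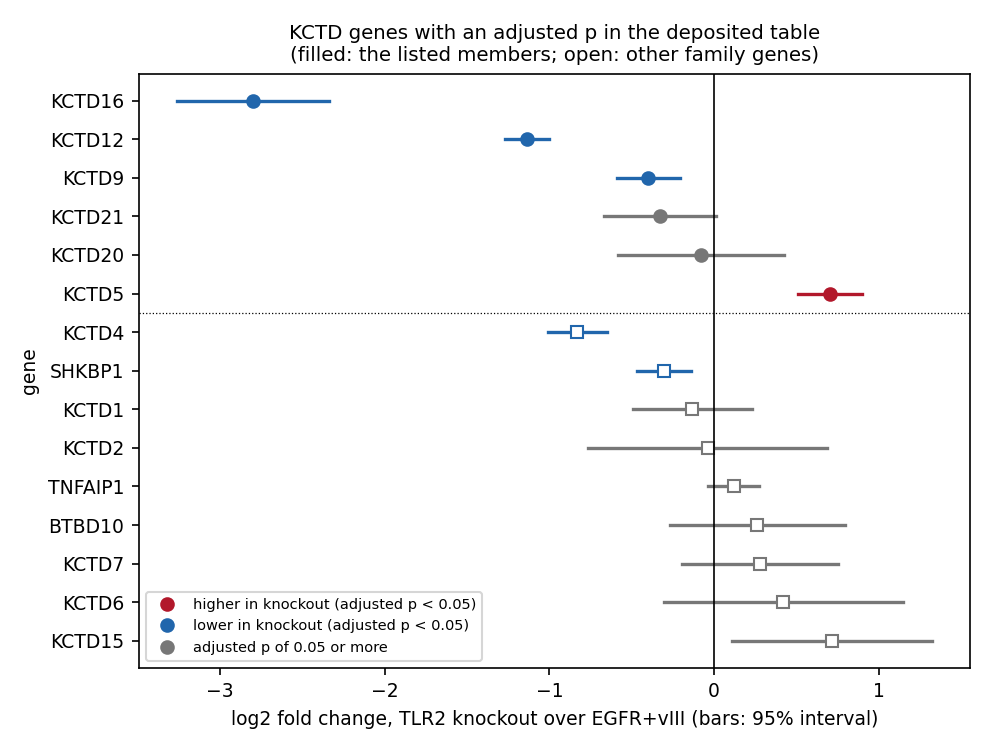
Log2 fold change of the 6 tested members (filled) and 9 other tested family genes (open), knockout over EGFR+vIII, on the x axis, with one gene per line. Bars are 95% intervals from the deposited SE, and the interval of KCTD16 (-3.26 to -2.34) lies below that of every other gene shown.

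The GABA-B auxiliary subunits were the members with the largest differences. KCTD16 (chromosome 5, 144170873 to 144485686, plus strand, 4 exons) is an auxiliary subunit that makes receptor responses rise faster. Its base mean was 133, and the implied levels were 233 normalized reads per library in EGFR+vIII and 33.4 in the knockout. The deposited log2 fold change was -2.80 (SE 0.24, DESeq2 adjusted p = 1.35e-30), 6.97-fold lower, the 8th lowest of 9372 tested genes. For comparison, the 100 tested genes nearest to KCTD16 in base mean had a median absolute log2 fold change of 0.31 and a median SE of 0.22, close to the SE of KCTD16 itself.

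KCTD12 (chromosome 13, 76880175 to 76886405, minus strand, 1 exon) is the auxiliary subunit that makes GABA-B currents desensitize by taking up G protein beta-gamma dimers. It had the highest base mean of the members, 9409, at percentile 98.0 of the tested genes. It held 72.6% of the reads counted for all members (an implied 78.2% in EGFR+vIII and 62.7% in the knockout). KCTD3, KCTD10, KCTD14 and KCTD18 had few or no reads listed, which does not give their level, so these shares cover counted reads only. The implied levels were 12940 normalized reads per library in EGFR+vIII and 5879 in the knockout. The deposited log2 fold change was -1.14 (SE 0.07, DESeq2 adjusted p = 4.01e-60), 2.20-fold lower. KCTD16 was lower than KCTD12 by a further difference of -1.66 in log2 fold change (95% interval -2.14 to -1.18, treating both estimates as independent). The third auxiliary subunit, KCTD8, which is no member, has 1 accession and is listed at 0. No read was counted there, which allows an expected count of up to 3 reads over the 6 libraries.

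The genes of the receptor these subunits serve had few or no reads listed. GABBR2, the receptor subunit that KCTD proteins bind, has 1 accession with 3 reads over the 6 libraries, 1 of them on the knockout side. GABBR1, the subunit that binds GABA, is listed at 0 in 4 accessions. The potassium channels KCNJ3, KCNJ5 and KCNJ6, effectors of the receptor, are listed at 0, and KCNJ9 had a base mean of 1.15. None of these 6 genes had an adjusted p, so they could not be compared. CUL3, COPS2, COPS4 and GNB1, which most cells use, are also listed at 0, so a listing at 0 does not give a gene's level here.

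**Figure D2:**
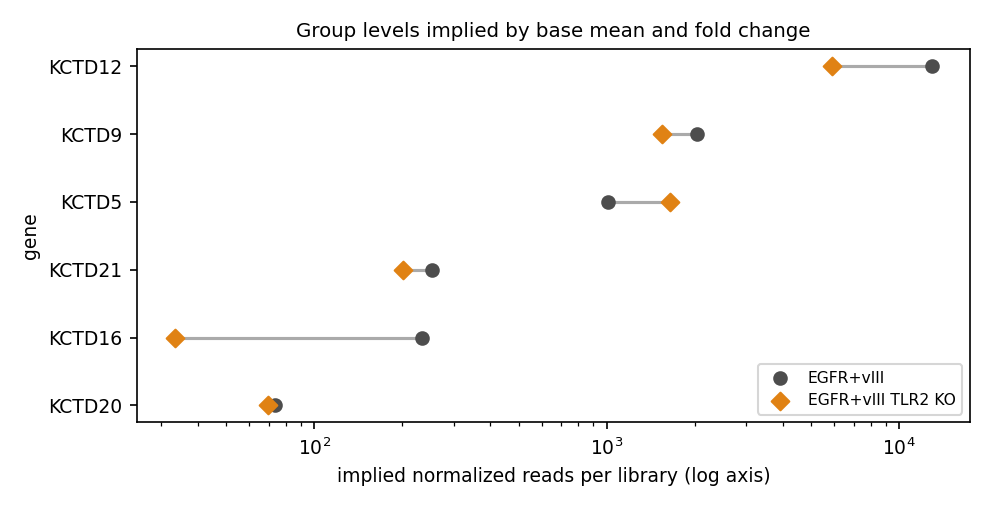
Levels of the 6 tested members implied by the deposited base mean and fold change, in normalized reads per library on a log axis, for EGFR+vIII (circles) and the TLR2 knockout (diamonds). KCTD16 shows the longest step, from 233 to 33.4, and KCTD20 the shortest, from 73.6 to 69.6.

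The list of G protein subunits, which holds inhibitory alpha subunits beside the beta and gamma subunits that KCTD12 and KCTD5 bind, had 4 of 10 tested genes lower and 1 higher in the authors' deposited table, beside the 12.7% and 12.4% of all genes, and 10 of the 20 listed were not tested. Their median log2 fold change was -0.29. GNAZ, an alpha subunit and so no part of the beta-gamma dimer, fell by 1.25 (SE 0.23), and the gamma subunits GNG11 and GNG12 fell by 0.72 and 0.49 (log2) in the authors' deposited table. The beta subunits went both ways, with GNB2 at 0.30 (SE 0.09) and GNB4, named here to complete the count, at -0.24 (SE 0.08). GNB1 is listed at 0 in 3 accessions.

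The CUL3 adaptors moved in both directions. KCTD5 (chromosome 16, 2682523 to 2709030, plus strand, 6 exons) is an adaptor that brings G protein beta-gamma dimers to CUL3 for ubiquitination. Its base mean was 1325, with implied levels of 1008 normalized reads per library in EGFR+vIII and 1643 in the knockout. The log2 fold change in the authors' deposited table was 0.71 (SE 0.10, DESeq2 adjusted p = 2.39e-11), a 1.63-fold higher level, and KCTD5 was the only one of the 6 tested members called higher. Its close relatives differed in what could be read: KCTD2 was at -0.04 (SE 0.37) with a base mean of 7.43, and KCTD17 had a base mean of 1.64 and no adjusted p.

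KCTD9 (chromosome 8, 25427847 to 25458433, minus strand, 12 exons), a CUL3 adaptor, had a base mean of 1791 and implied levels of 2037 normalized reads per library in EGFR+vIII and 1544 in the knockout. The log2 fold change in the authors' deposited table was -0.40 (SE 0.10, DESeq2 adjusted p = 0.00034). This call was lost when Wald scores were scaled by their central spread (adjusted p = 0.161), when the null was a change of up to 1.5-fold (adjusted p = 1) and relative to neighbouring genes (adjusted p = 0.992). In that last test KCTD9 lay at -0.00225 on the log2 scale from the median of its neighbours. The test took this median as free of error, so its p reflects only the SE of KCTD9. KCTD5 lost its call against the same 1.5-fold null (adjusted p = 1), and KCTD12 and KCTD16 kept theirs under every alternative run.

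The genes around the members give the regional level. Within 2 Mb on either side of KCTD9, 13 tested genes had a median log2 fold change of -0.40 and a range of -2.56 to 0.14. Of these, 3 were called lower and 0 higher, beside 12.7% and 12.4% of all tested genes. DOCK5, a neighbour 12136 bases away that was chosen after its value was seen, stood at -0.42 (SE 0.07) in the authors' deposited table. EBF2, the neighbour with the highest value, stood at 0.14 (SE 0.10) with a base mean of 1262. Around KCTD16, 8 tested genes had a median of -0.05 and a lowest value of -0.90, far above the -2.80 of KCTD16. Around KCTD12, 7 tested genes had a median of 0.30 and a lowest value of 0.03, so that KCTD12 lay -1.44 from its neighbours. Around KCTD5, 58 tested genes had a median of 0.16, which left KCTD5 at 0.55 above them. The part of a regional change in the value of KCTD9 was not tested.

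**Figure D3:**
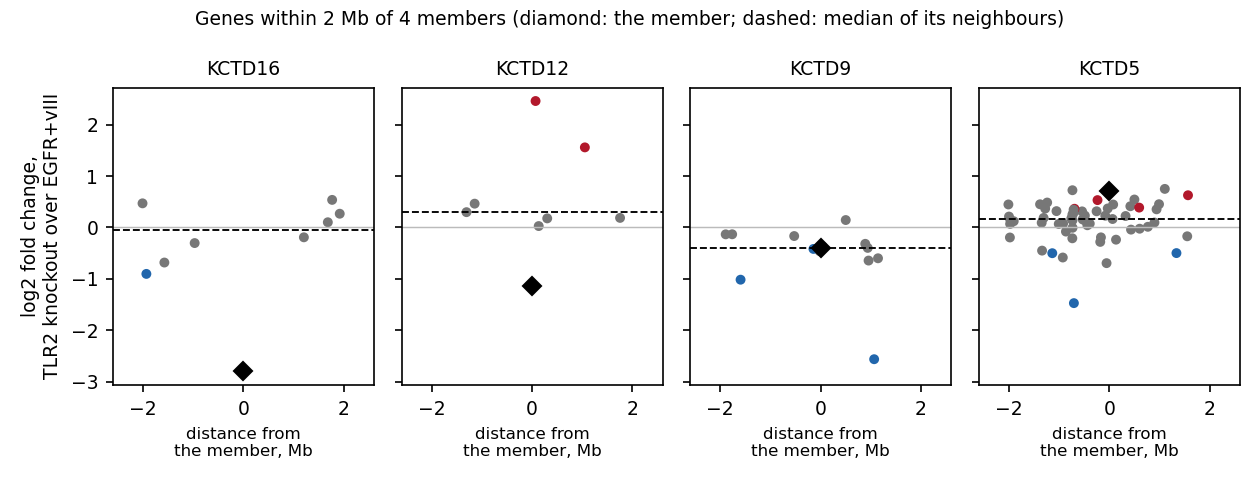
Log2 fold change, knockout over EGFR+vIII, of tested genes within 2 Mb of 4 members, by distance from the member in Mb. Diamonds are the members, dashed lines the median of the neighbours, and red and blue points the neighbours called higher and lower. KCTD9 lies on its dashed line (-0.40), and KCTD16 and KCTD12 lie below all their neighbours.

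The remaining tested members did not pass. KCTD21 (chromosome 11, 78171249 to 78188626, minus strand, 2 exons), an adaptor that targets the deacetylase HDAC1 and thereby restrains Hedgehog signalling, had a base mean of 227. Its implied levels were 253 normalized reads per library in EGFR+vIII and 202 in the knockout, with a log2 fold change of -0.33 (SE 0.17, DESeq2 adjusted p = 0.177) in the authors' deposited table. The 95% interval, -0.67 to 0.01, holds the -0.40 of KCTD9, and the difference between the pair was -0.07 (95% interval -0.46 to 0.32). KCTD21 overlaps its antisense gene KCTD21-AS1, which had a base mean of 0.854, and the strand of the counting is not given in the sources used here. KCTD20 (chromosome 6, 36443000 to 36491141, plus strand, 8 exons), a relative of BTBD10 known to promote AKT signalling, had a base mean of 71.6 in 1 of its 5 accessions. Its log2 fold change was -0.08 (95% interval -0.58 to 0.42, DESeq2 adjusted p = 0.887) in the authors' deposited table, and BTBD10 itself stood at 0.26 (SE 0.27).

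The last 4 members could not be compared. KCTD10, the BACURD3 adaptor of CUL3, is listed at 0 in 5 accessions, KCTD18 in 4 and KCTD14 in 2. KCTD14 overlaps the read-through gene NDUFC2-KCTD14, which is listed at 0 in 3 accessions, as is NDUFC2 itself. KCTD3, a partner of a pacemaker channel, had 2 reads over the 6 libraries in 1 of its 3 accessions, 1 on each side of the comparison. A listing at 0 means that no read was counted. It allows an expected count of up to 3 reads over the 6 libraries for that accession, counting error only, and is no proof of silence.

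How much of the family could be read went with the number of accessions. Of 10 family genes with 1 accession, 8 reached a base mean of at least 100, and the median was 1454. Of 15 genes with 2 or more accessions, 1 did (KCTD1, 206), and the median was 2.78. Over the family, 34 of 58 accessions are listed at 0 and 16 had an adjusted p. KCTD10, KCTD14, KCTD18 and KCTD3 all have more than 1 accession. The part that the split of reads over accessions plays in their listing was not tested.

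**Figure D4:**
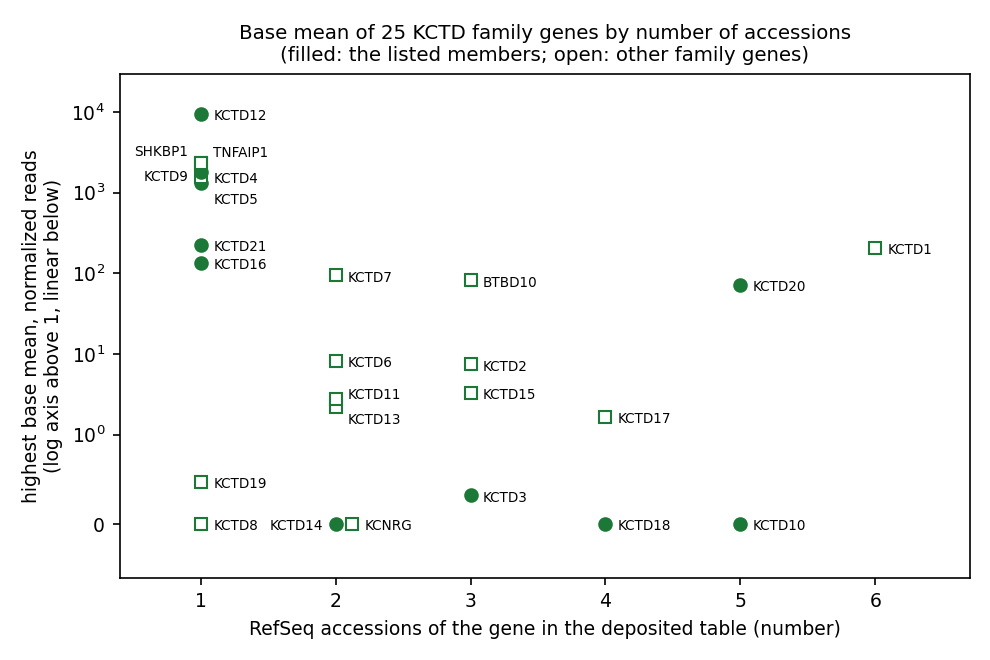
Highest base mean of each of 25 family genes (normalized reads, log axis above 1 and linear below) by the number of RefSeq accessions in the table. Filled circles are the listed members and open squares the other family genes, and every gene above 1000 has 1 accession.

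Per kilobase of the GENCODE transcript paired with the counted accession, the base means of the members ran from 1512 for KCTD12 through 534 for KCTD5, 527 for KCTD9, 63.4 for KCTD21 and 57.6 for KCTD16 to 12.7 for KCTD20. These pool both groups, and the order differed between them. The implied level of KCTD5 was 406 per kilobase in EGFR+vIII and 662 in the knockout, while that of KCTD9 was 599 and 454. The implied level of KCTD16 was 101 per kilobase in EGFR+vIII and 14.5 in the knockout, while that of KCTD21 was 70.6 and 56.2. The place of KCTD16 is uncertain, since its longest GENCODE transcript has 13950 bases against the 2313 used, which would give 9.55 per kilobase. That of KCTD20 is uncertain too, since reads were counted for only 1 of its 5 listed transcripts.

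The other 15 family genes had 9 tested, 2 called lower and 0 higher in the authors' deposited table, beside the 25.1% of all genes. KCTD4, a little-studied member of the family, fell by 0.83 (SE 0.09, DESeq2 adjusted p = 4.56e-18) from an implied 2028 to 1140 normalized reads per library. The genomic span of KCTD4 overlaps that of GTF2F2, a gene with a base mean of 4678 and a log2 fold change of 0.04 (SE 0.08). Whether their exons overlap was not looked up, and without a stated strand some reads may be shared. SHKBP1, the relative of KCTD3 known as a binding partner of an EGFR trafficking adaptor, fell by 0.31 (SE 0.08, DESeq2 adjusted p = 0.00217). TNFAIP1, the BACURD2 adaptor, had a log2 fold change of 0.12 (95% interval -0.04 to 0.27) at a base mean of 2306. KCTD13, the BACURD1 adaptor, had a base mean of 2.18 and no adjusted p. KCTD1 and KCTD15, inhibitors of AP-2 factors, stood at -0.13 (SE 0.18) and 0.72 (SE 0.31), and KCTD7, a gene of myoclonic epilepsy, at 0.28 (SE 0.24), none past the adjusted p in the authors' deposited table. KCTD6, a Hedgehog restrainer like KCTD21, was at 0.42 (SE 0.37) with a base mean of 8.12, while KCTD11 (2.78), KCTD19 (0.469) and KCNRG (0) had no adjusted p.

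Partners and targets are given by list. The CUL3 ligase core and its neddylation enzymes had 2 of 9 tested genes called higher (22.2%) and 0 called lower in the authors' deposited table, with a median of 0.18, where 12.4% of all tested genes were called higher and 12.7% lower. DCUN1D2, a neddylation co-factor, rose by 0.70 (SE 0.15) and UBE2M, the NEDD8-conjugating enzyme, by 0.22 (SE 0.08), while the ring subunit RBX1 was at 0.17 (SE 0.09) and CUL3 is listed at 0 in 3 accessions. Other BTB adaptors of CUL3 had 6 of 30 tested genes called higher and 4 called lower, 33.3% beside the 25.1% of all tested genes, with a median of -0.02. KLHL14 fell by 1.76 (SE 0.38), BTBD2 fell by 1.21 (SE 0.11) and KLHL4 fell by 0.73 (SE 0.16) (log2) in the authors' deposited table, and KBTBD6 rose by 0.50 (SE 0.13).

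POLD2, a polymerase delta subunit that binds BACURD proteins, was the 1 tested gene of its list of 5, at -0.11 (SE 0.38) in the authors' deposited table, and PCNA was not tested.

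The list of HDAC1 and the Hedgehog pathway, which holds ligands, co-receptors and transcription factors, had 2 of 9 tested genes called higher and 2 called lower in the authors' deposited table. These are 44.4% beside the 25.1% of all tested genes, with a median of 0.14. The ligand SHH fell by 2.25 (SE 0.28) and the transcription factor GLI2 fell by 0.56 (SE 0.16), while the co-receptors GAS1 and BOC rose by 1.17 (SE 0.28) and 0.82 (SE 0.30). HDAC1, the substrate of KCTD21, was at 0.14 (SE 0.09), and GLI1, the pathway's readout gene, at 0.15 (SE 0.34) with a base mean of 4.69. In the AKT list 1 of 6 tested genes was called (16.7% beside the same 25.1%), the kinase MTOR (0.28, SE 0.08), and AKT1 was at 0.09 (SE 0.37). Of AP-2 factors, TFAP2C rose by 0.69 (SE 0.14) and TFAP2A did not pass, with a log2 fold change of -0.40 (SE 0.28).

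**Figure D5:**
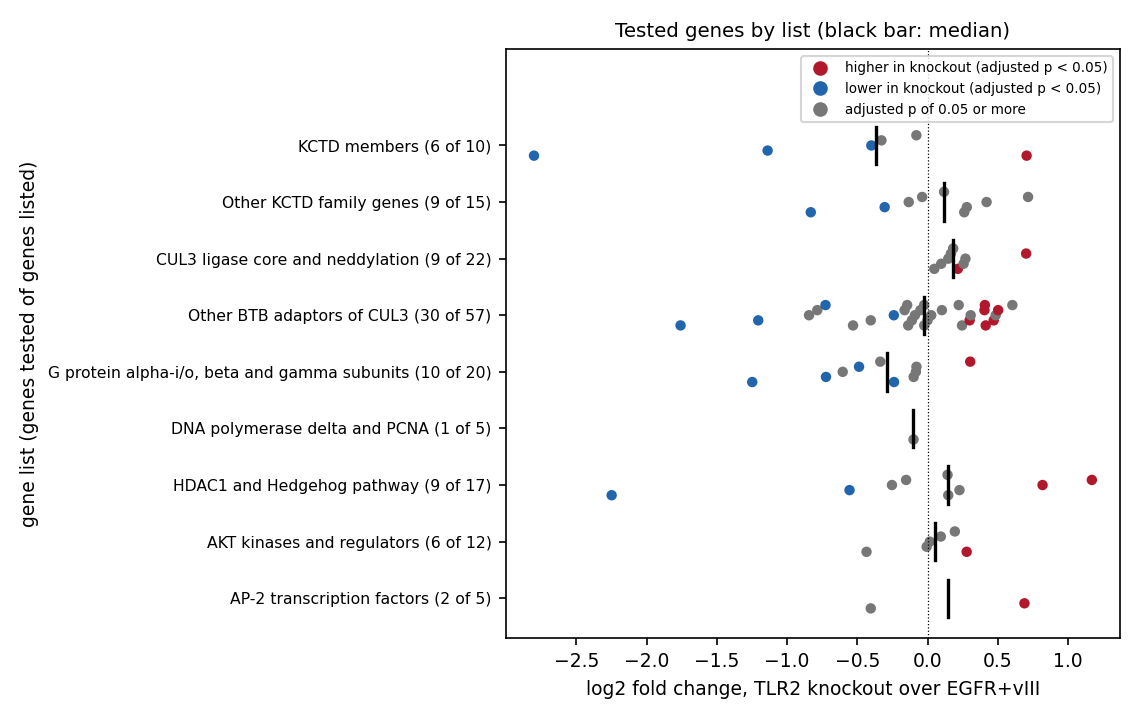
Log2 fold change of the tested genes of each list shown, knockout over EGFR+vIII, with the median as a black bar. Labels give the genes tested of those listed. The GABA-B receptor list is not drawn because none of its 6 genes was tested, and the lowest value drawn is that of KCTD16 (-2.80) and the highest that of GAS1 (1.17).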

How the data were processed

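RNA-seq of 6 libraries, 3 per group, was available as 1 table of the authors' own comparison. Reads were processed with STAR, hg38 and DESeq2, per the submitters' processing notes, and no versions or settings are given in the sources used here. The columns are, per the file headers, a base mean (deposited as a normalized read signal), a log2 fold change with its SE (the authors' log2 values, with sizes that look shrunken, the highest SE being 0.38), a Wald score (the authors' score) and p-value and adjusted p-value columns deposited by the authors. No count or value per library was used, so no test was refitted and every p comes from the authors' DESeq2 test with Benjamini-Hochberg adjustment, or from the alternatives computed on the deposited values.

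Of 67933 accessions, 49824 are listed at 0, 18109 have a p-value and 10303 an adjusted p-value. Accessions were matched to symbols by RefSeq for GRCh38.p14 (98.8% matched). Each gene was taken by its accession with the highest base mean, which gave 9372 tested genes, and called at an adjusted p under 0.05. Whole reads behind base means near 0 and their side were recovered from 6 size factors, read from the smallest base means with a tolerance of 1e-06, the side from the sign of the fold change. Implied levels are the pair of group means that give the deposited base mean and fold change with groups of equal size. Intervals are at 95%. Promoters are from RefSeq, lengths and exons from GENCODE on GRCh38.

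The text names all members, the other family genes, 10 partner genes chosen for their role, the 4 called genes of largest change in each list, and genes that overlap a member and have values here. Further genes that overlap KCTD3, KCTD9, KCTD14, KCTD16 or KCTD20 have no values in these data and are not named. No rule for likeness of pattern could be applied, since no value per library was used. Some partner genes are not reported here. The members and lists were chosen with earlier results of these data known. Alternatives were a null of a change of up to 1.5-fold, scaled Wald scores, a base mean of at least 100, no filter on low values, Benjamini-Yekutieli adjustment, values relative to neighbouring genes, and the accession with the smallest adjusted p. Scripts (Python 3.11.15, numpy 2.4.6, pandas 2.3.3, scipy 1.17.1, matplotlib 3.10.9) were tested on simulated data.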

Additional observations from a re-analysis of the deposited data

How the results depend on the processing

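No paired analysis was possible because the table holds no value per library, and for the same reason no replicate could be left out. No tested member changed the sign of its fold change under the alternatives run for it. Against a null of a change of up to 1.5-fold, 2 members (KCTD12 and KCTD16) passed against 4 as deposited, with 0 other family genes, 0 of the CUL3 core, 2 other BTB adaptors (0 higher and 2 lower, against 6 and 4 as deposited), 1 G protein subunit, 1 Hedgehog gene (0 higher and 1 lower, against 2 and 2), 0 AKT genes and 0 AP-2 factors, where 4.67% of all genes passed. With Wald scores scaled by their central spread, 9.36% of all genes passed, with 1 other family gene, 0 of the CUL3 core, 2 other BTB adaptors, 3 G protein subunits, 1 Hedgehog gene and 0 AKT genes, and 3 members. A base mean of at least 100 left 1 Hedgehog gene, where 47.7% of all genes passed. With no filter on low values 1 gene of the CUL3 core and 14% of all genes passed. Under Benjamini-Yekutieli adjustment 1 gene of the CUL3 core and 17.8% of all genes passed. Relative to neighbouring genes, 1 gene of the CUL3 core and 2 AP-2 factors passed, with 26.0% of all genes. Taking the accession with the smallest adjusted p changed none of the 16 results. The cause of these differences was not tested. KCTD3, KCTD10, KCTD14 and KCTD18 have no adjusted p under the deposited filter.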
